A study of Mus musculus with 12 samples.

Results

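The granulocyte lineage transcription factors described here are the 8 genes Cebpa, Cebpb, Cebpd, Cebpe, Gfi1, Spi1, Myb and Runx1, and their probe sets were chosen by symbol: every probe set whose single gene symbol in the array annotation is one of these names. This gave 16 of 45037 probe sets that are not controls, for 7 of the 8 genes: 1 probe set each for Cebpa, Gfi1 and Spi1, 2 each for Cebpb and Cebpd, 3 for Myb and 6 for Runx1. Cebpe was matched by no probe set under this rule and was not analysed here. The arrays came from spleens of BALB/c mice, 1 array for each of 12 mice. Wild-type (wt) and Il1rn deficient (ko) mice were compared at 1 month and at 4 months of age, with 3 mice in each of the 4 groups. Il1rn encodes the IL-1 receptor antagonist, so the ko mice lack an inhibitor of IL-1 signalling, and the series title asks about genes tied to phases of arthritis. Sex, housing and the construct behind the deficiency are not stated in the labels.

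Neutrophils arise from blood progenitors through a sequence of precursors, and the factors above act at successive steps of it. Runx1 and Myb act in stem and progenitor cells, Spi1 (PU.1) and Cebpa commit progenitors to the myeloid lineage, Gfi1 favours the granulocyte over the monocyte fate, Cebpe drives the formation of secondary granules, and Cebpb supports granulocyte production under inflammatory demand. Cebpd is induced by inflammatory cytokines and is expressed in maturing neutrophils. Mouse spleen keeps a blood-forming red pulp, and several of these genes are not restricted to granulocytes. Spi1 is also expressed in B cells and macrophages, Myb and Runx1 also in lymphoid and erythroid precursors, and Cebpa and Cebpb also in macrophages.

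Signals are the authors' MAS5 signal intensities on a linear scale, scaled so that each array has a 2% trimmed mean of 500, and they are called scaled signals below. A probe set reads 1 stretch of a transcript, so its level is compared between arrays and never with another probe set. Of the 16 probe sets, 15 passed the filter on low values (100 or more on 3 or more arrays) and were tested. The Runx1 probe set 1427650_a_at did not pass, with signals from 8.57 to 112. Log2 differences were computed on log2(scaled signal + 32), which understates the change of dim probe sets, and a call means a Benjamini-Hochberg adjusted p under 0.05 over all 27041 probe sets tested with limma. Array medians ran from 113 to 147, and 52.1% to 59.2% of probe sets reached 100. For Gapdh, the 3' probe set over the 5' one gave 0.649 to 0.999, and for actin 1.07 to 1.37. The arrays fell into 2 sets by their highest deposited signal, a low set of 6 arrays with 33427 to 37921 and a high set of 6 with 51247 to 68987. The 3 ko arrays at 1 month were all in the low set, each other group had 1 low and 2 high arrays, and the cause of the split is not given in the sources used here. Summed pancreas markers stood at 149163 in wt at 4 months replicate 2 and between 1377 and 2596 on the other 11 arrays. Of 3 Il1rn probe sets, 1 was called lower in ko at each age, at -1.70 (SE 0.35, adjusted p = 0.0403) at 1 month and -2.17 (SE 0.35, adjusted p = 0.0034) at 4 months, and the other 2 were called at neither age. None of the 13 B cell and 11 T cell markers was under 100 on all arrays.

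Between the genotypes, few probe sets of these factors were called at an adjusted p under 0.05. Many of the neutrophil granule genes that the factors are known to drive were called higher in ko at both ages. Over both ages together, Cebpb (probe set 1418901_at) was 1.90-fold and Cebpd (1423233_at) 1.59-fold higher in ko. Myb (1422734_a_at) was 2.08-fold higher in ko at 1 month. Cebpa differed by 1.08-fold at 1 month and 1.05-fold at 4 months and was called at neither age. At 1 month 1 of the 15 probe sets was called, against 0.444% of all probe sets tested, and at 4 months 0 of 15, against 2.3%. Over both ages 2 of 15 were called, against 5.39%. At an unadjusted p under 0.05 the counts were 7, 2 and 6 of 15, in the same order, against 15.8%, 15.7% and 22.8% of all probe sets. The median log2 difference of the 15 was 0.26, -0.05 and 0.34, beside -0.04, -0.01 and -0.02 for all probe sets tested. In whole spleen, a smaller number of cells of a type and less RNA per cell cannot be told apart, and this holds for every value below.

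**Figure D1:**
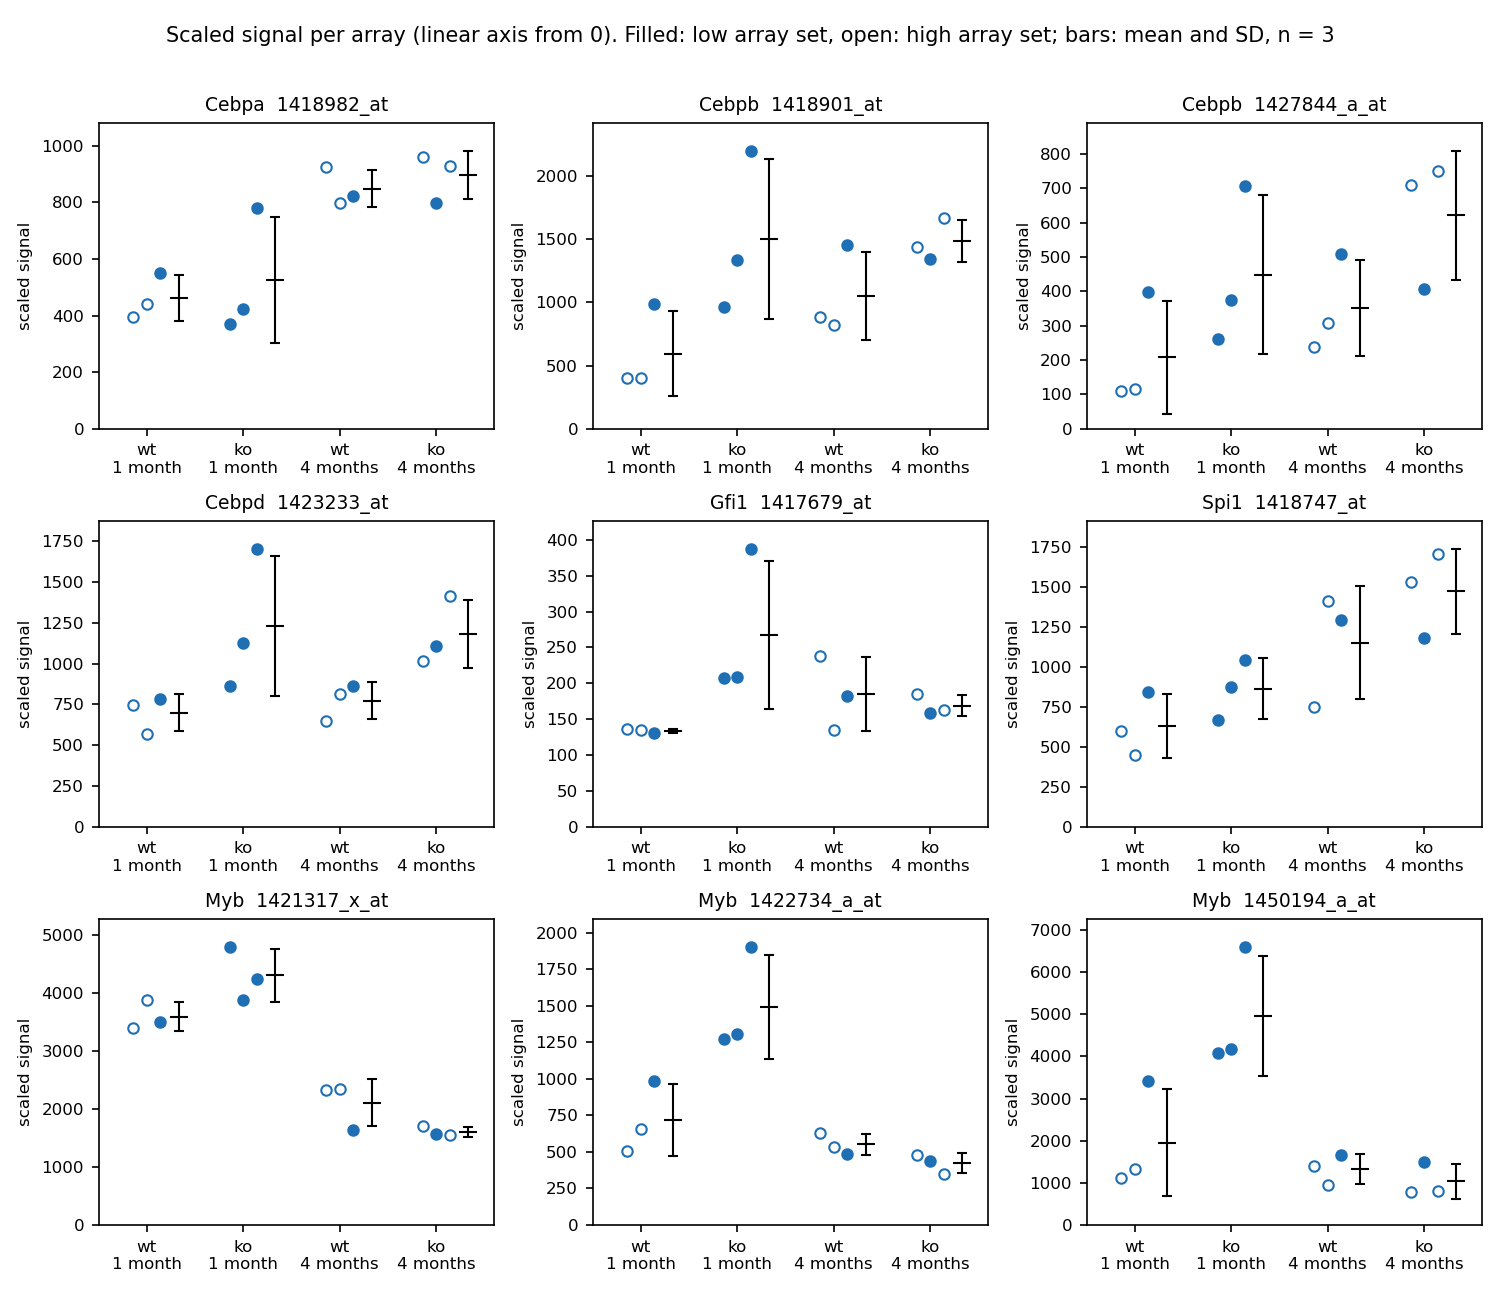
Scaled signal (linear axis from 0) of 9 probe sets of Cebpa, Cebpb, Cebpd, Gfi1, Spi1 and Myb on each of the 12 arrays, by group, with filled points for the low array set, open points for the high set, and the mean and SD of 3 arrays beside them. The Cebpa means run from 462 and 526 at 1 month to 848 and 896 at 4 months, while wt at 1 month replicate 3 (986 for Cebpb 1418901_at) stands above the other wt arrays of that age (399 and 401).

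Cebpb encodes C/EBPbeta, a leucine zipper factor of emergency granulopoiesis and of macrophage activation. On probe set 1418901_at the 3 wt arrays at 1 month read 399, 401 and 986 and the 3 ko arrays 962, 1337 and 2198. Replicate 3 of wt thus lay inside the ko range, and the groups overlapped. At 4 months wt read 888, 819 and 1453 and ko 1439.8, 1343 and 1666, again with wt replicate 3 inside the ko range. The log2 difference of ko against wt was 1.33 (SE 0.32, adjusted p = 0.0804) at 1 month, 0.52 (SE 0.32, adjusted p = 0.455) at 4 months and 0.93 (SE 0.23, adjusted p = 0.0302) over both ages. Between the ages this effect differed by -0.81 (SE 0.45, adjusted p = 0.643), so a change of the genotype effect with age was not shown. The second probe set, 1427844_a_at, had means of 208 ± 164 (SD, n = 3) for wt against 449 ± 231 for ko at 1 month, and of 352 ± 140.5 for wt against 621 ± 187 for ko at 4 months. It was not called over both ages, at 0.94 (SE 0.29, adjusted p = 0.0674).

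In wt, Cebpb 1418901_at read higher on the low array than on the high arrays at each age, with 1 low and 2 high arrays a group. In ko at 4 months this was reversed, and ko at 1 month had no high array. In wt at 1 month the low array read 986 and the 2 high arrays a mean of 400.1, and in wt at 4 months the low array read 1453 and the high arrays a mean of 853. In ko at 4 months the low array, at 1343, lay below the high arrays, at a mean of 1553. Within the high set at 4 months, 2 ko against 2 wt arrays, the log2 difference of 1418901_at was 0.84 (SE 0.20, adjusted p = 0.130), and within the low set, 1 against 1, it was -0.11 (SE 0.45). For 1427844_a_at the same values were 1.32 (SE 0.25, adjusted p = 0.0599) and -0.31 (SE 0.52). At 1 month within the low set, 3 ko arrays against 1 wt array, 1418901_at differed by 0.51 (SE 0.37) and 1427844_a_at by 0.05 (SE 0.42). With the array set as a block, the call of 1418901_at over both ages was lost (0.73, SE 0.21, adjusted p = 0.068).

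The Cebpb call over both ages was also lost with eBayes without a trend (adjusted p = 0.0727) and without any one of 8 arrays. Without wt at 1 month replicate 1 or 2 the adjusted p was 0.0593 and 0.0878, without ko at 1 month replicate 2 or 3 it was 0.0558 and 0.0911, without wt at 4 months replicate 1 it was 0.0679, and without ko at 4 months replicate 1, 2 or 3 it was 0.0572, 0.051 and 0.0757. Without wt at 1 month replicate 3, the array that read 986, both probe sets were called at 1 month, 1418901_at at 1.74 (SE 0.28, adjusted p = 0.00518) and 1427844_a_at at 1.62 (SE 0.36, adjusted p = 0.0219). Calls over all probe sets rose in that fit too, from 0.444% to 5.92%. It set 2 wt arrays of the high set against 3 ko arrays of the low set at 1 month. Genotype and array set could therefore not be told apart at that age in this fit.

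The 250 bases before the Cebpb start, from RefSeq on GRCm38.p6, are shown because Cebpb is one of the members with a genotype call. The window is chr2:167688665-167688914 on the plus strand, 81.6% of its bases are G or C against a median of 52.4% over 32851 promoter windows of the same length, and capitals mark matches to the motifs below.

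Cebpb: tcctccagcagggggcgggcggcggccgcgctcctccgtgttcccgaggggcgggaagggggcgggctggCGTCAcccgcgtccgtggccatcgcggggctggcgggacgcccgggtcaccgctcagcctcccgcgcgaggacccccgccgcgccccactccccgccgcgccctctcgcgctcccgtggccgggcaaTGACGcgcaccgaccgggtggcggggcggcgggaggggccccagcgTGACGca

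Letters of 5 motifs were searched on both strands of each window: TGACG (the core of a CREB site), TTGCNNAA (C/EBP), GAGGAA (PU.1), TGTGGT (RUNX) and AACNG (MYB). They occur in 17.8%, 9.56%, 23.3%, 14% and 74.2% of all windows, in that order. The Cebpb window held 3 matches to TGACG, beginning 180, 53 and 7 bases before the start, and no match to the other 4. These matches describe letters and were not measured as binding sites. Windows were listed for 5 of the 8 genes: Cebpa, Cebpb, Gfi1, Myb and Runx1.

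Cebpd encodes C/EBPdelta, an inflammation-induced member of the same leucine zipper family. On 1423233_at wt at 1 month read 747, 569 and 784 and ko 863, 1125 and 1702, and at 4 months wt read 646, 813 and 863 and ko 1017, 1111 and 1414. All ko arrays lay above all wt arrays at each age. The share of all probe sets with this pattern at both ages together was not counted. Groups separate with ko higher were found in 7.99% of all probe sets tested at 1 month and 10.9% at 4 months, and among the 15 in 5 at 1 month and 1 at 4 months. The log2 difference was 0.74 (SE 0.22, adjusted p = 0.129) at 1 month, 0.59 (SE 0.22, adjusted p = 0.189) at 4 months and 0.66 (SE 0.15, adjusted p = 0.0236) over both ages. Between the ages the Cebpd effect differed by -0.16, with a 95% interval from -0.81 to 0.49. Within the high set at 4 months the difference was 0.70 (SE 0.24), and within the low set it was 0.57 (SE 0.32) for the 1-month and 0.35 (SE 0.39) for the 4-month mice. The call over both ages was lost with the array set as a block (0.62, SE 0.17, adjusted p = 0.0516) and with eBayes without a trend (adjusted p = 0.0606). It was also lost without wt at 1 month replicate 2 (adjusted p = 0.0714), ko at 1 month replicate 3 (0.0642), wt at 4 months replicate 1 (0.0572) and ko at 4 months replicate 3 (0.0707). The other Cebpd probe set, 1456605_at, was near the filter on low values, at 37.3 to 134 over the 12 arrays, and gave 0.34 (SE 0.22, adjusted p = 0.379) over both ages.

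**Figure D2:**
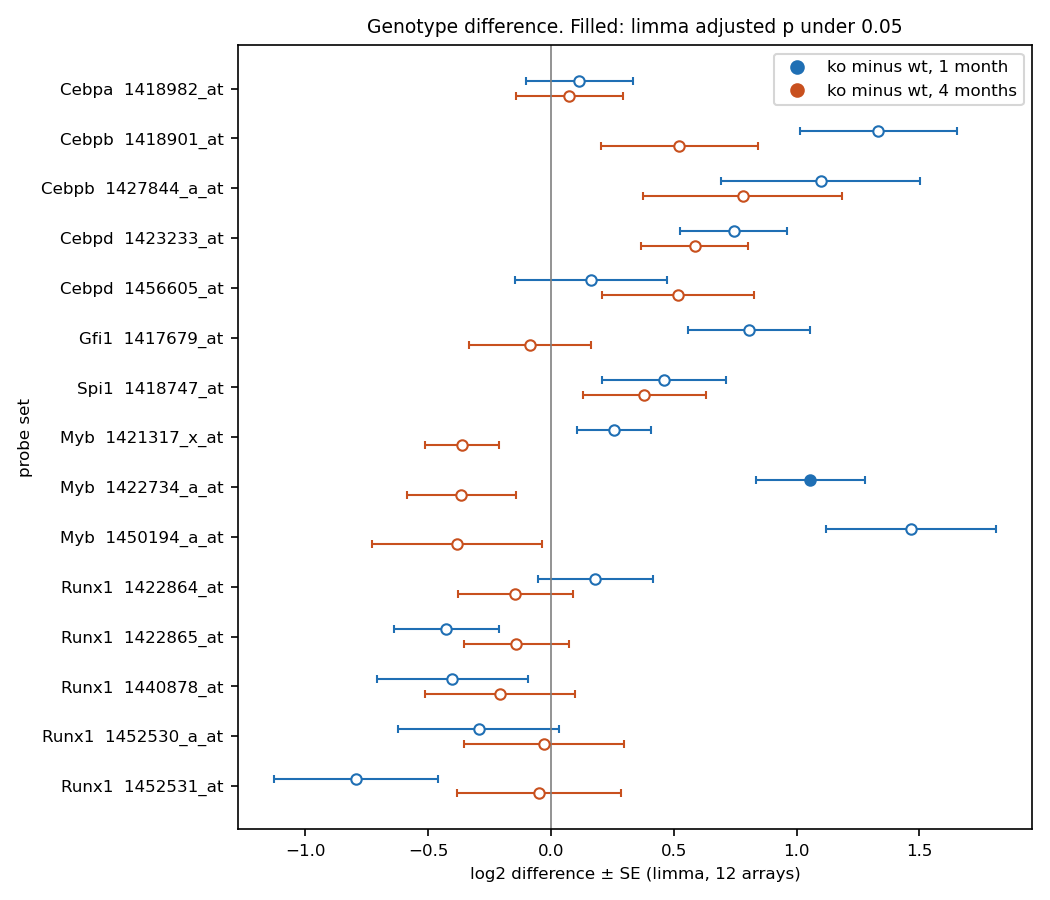
Log2 difference of ko against wt (x axis, limma, bars are SE) for the 15 tested probe sets at 1 month (blue) and at 4 months (orange), with filled points where the adjusted p was under 0.05. Myb 1422734_a_at at 1 month (1.06) is the one filled point, the Cebpb and Cebpd points lie above 0 at both ages, and the 3 Myb points change side between the ages.

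Myb encodes c-Myb, a factor of proliferating progenitors that is shut off as cells mature. At 1 month, 1422734_a_at read 503, 658 and 986 in wt and 1270.2, 1308 and 1902 in ko, with no overlap. The log2 difference was 1.06 (SE 0.22, adjusted p = 0.0474). Probe set 1450194_a_at read 1123, 1338 and 3407 in wt and 4085, 4170.3 and 6594 in ko, also with no overlap, and was not called, at 1.47 (SE 0.35, adjusted p = 0.077). The third, 1421317_x_at, whose suffix marks probes that may also bind other transcripts, read 3404, 3877 and 3499.6 in wt and 4797, 3885 and 4248 in ko. Its groups were only just separate, at 3877 against 3885, and it was not called, at 0.26 (SE 0.15, adjusted p = 0.413). The probe sets of Myb thus differed in the size of the genotype difference at 1 month, from 1.20-fold to 2.76-fold.

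At 4 months the 3 Myb probe sets were lower in ko by their estimates, at -0.36 (SE 0.15), -0.37 (SE 0.22) and -0.38 (SE 0.35), and none was called (adjusted p = 0.246, 0.45 and 0.638 for 1421317_x_at, 1422734_a_at and 1450194_a_at). On 1422734_a_at the ko arrays (480.3, 438 and 348) lay below the wt arrays (631, 536 and 487). Groups separate with ko lower at 4 months were found in 1 of the 15, against 11.4% of all probe sets tested. From 1 to 4 months the genotype effect shifted by -1.42 (SE 0.31, adjusted p = 0.163) for 1422734_a_at and -1.85 (SE 0.49, adjusted p = 0.273) for 1450194_a_at. The shift was -0.62 (SE 0.21, adjusted p = 0.423) for 1421317_x_at. None of the 15 probe sets was called for this difference, against 0.0481% of all probe sets tested, and at an unadjusted p under 0.05 there were 4 of 15, against 8.65%. Without wt at 1 month replicate 3, this difference was called for 1422734_a_at (-1.67, adjusted p = 0.0286) and 1450194_a_at (-2.33, adjusted p = 0.0275), and for 0.178% of all probe sets. On 1450194_a_at that array, at 3407, stood nearer to the ko arrays than to the other wt arrays. Without it the wt arrays at 1 month were all of the high set and the ko arrays all of the low set. Genotype and array set could then not be told apart at that age.

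The Myb call at 1 month depended on single arrays and settings. Blocking on the array set ended it, at 0.92 (SE 0.25, adjusted p = 0.268), and within the low set, 3 ko arrays against 1 wt array, 1422734_a_at differed by 0.56 (SE 0.25) and 1450194_a_at by 0.50 (SE 0.26). It was lost without any one of 11 arrays, with adjusted p from 0.0503 to 0.312, the highest without ko at 1 month replicate 3. Without wt at 1 month replicate 3 it was 1.30 (SE 0.21, adjusted p = 0.00518), and 1450194_a_at was then called as well (1.95, SE 0.29, adjusted p = 0.00284), again beside 5.92% of all probe sets. That fit again compared wt arrays of the high set alone with ko arrays of the low set alone at 1 month. Quantile normalization (adjusted p = 0.0653), an offset of 1 (0.0613), no filter (0.0777), eBayes without a trend (0.117) and the replicate block (0.0567) also ended it.

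**Figure D3:**
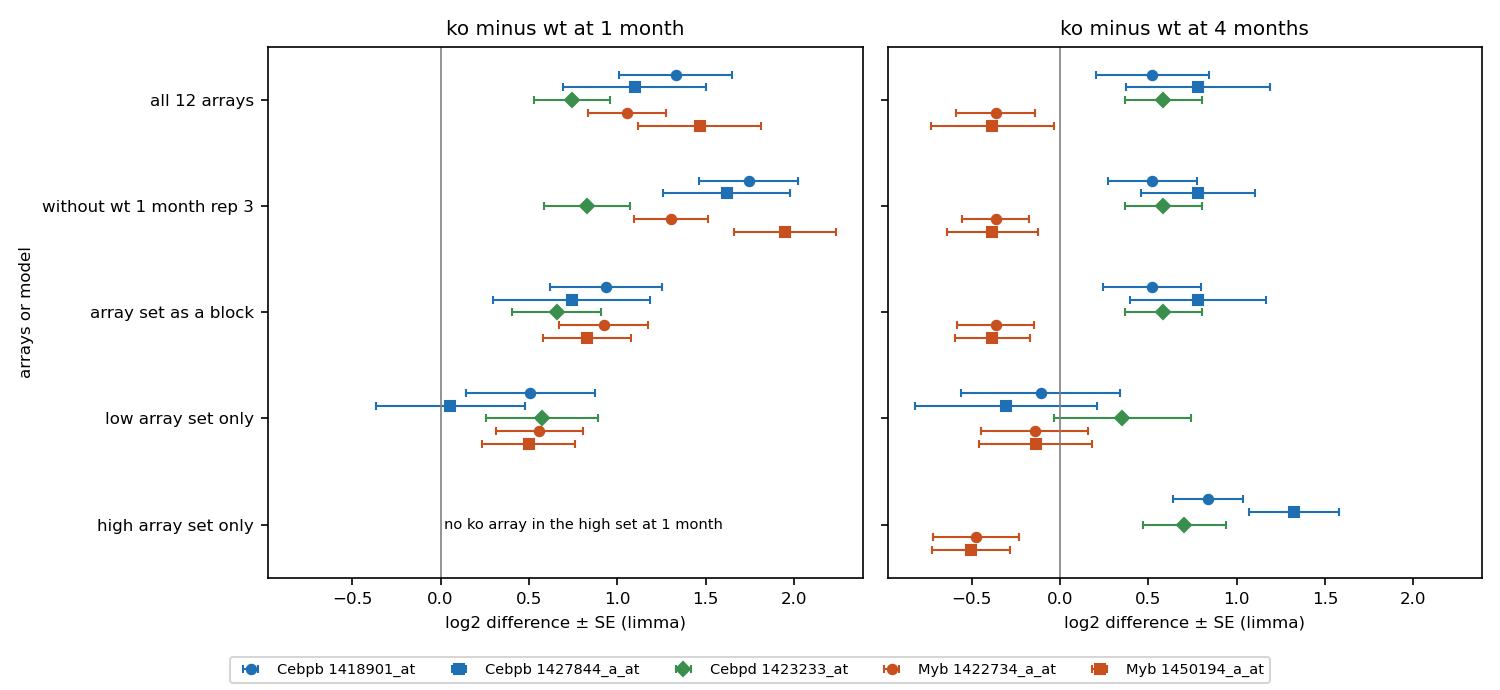
Log2 difference of ko against wt (x axis, bars are SE from limma) for 2 Cebpb, 1 Cebpd and 2 Myb probe sets at 1 month (left) and 4 months (right), with all 12 arrays, without wt at 1 month replicate 3, blocked on the array set, and within the low or the high array set. At 1 month the Cebpb 1418901_at difference falls from 1.33 with all arrays to 0.51 within the low set, and at 4 months it is 0.84 within the high set and -0.11 within the low set. Without wt at 1 month replicate 3, the wt arrays of that age are all of the high set and the ko arrays all of the low set.

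Gfi1 encodes a zinc finger repressor that holds back monocyte genes in granulocyte precursors. Its probe set, 1417679_at, read 136, 134 and 130.1 in wt at 1 month and 208, 209 and 387 in ko, with no overlap. The 3 wt arrays, which include both array sets, lay close together. The difference was 0.80 (SE 0.25, adjusted p = 0.149) and was not called. At 4 months wt read 238, 135 and 183 and ko 186, 159 and 163, with a difference of -0.09 (SE 0.25, adjusted p = 0.907) and a 95% interval from -0.61 to 0.44. Within the low set at 1 month, 3 ko arrays against 1 wt array, the difference was 0.83 (SE 0.34). Signals of Gfi1 were low, with 130.1 to 387 against an array median of 113 to 147.

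Spi1 encodes PU.1, an Ets factor of myeloid and B cells. Its probe set, 1418747_at, had means of 629 ± 200.3 (SD, n = 3) for wt against 865 ± 189 for ko at 1 month, and of 1152 ± 354 for wt against 1473 ± 265 for ko at 4 months. The genotype difference was 0.46 (SE 0.25, adjusted p = 0.383) at 1 month, 0.38 (SE 0.25, adjusted p = 0.491) at 4 months and 0.42 (SE 0.18, adjusted p = 0.171) over both ages. The groups overlapped at each age. Within the low array set the difference was 0.01 (SE 0.24) at 1 month, -0.12 (SE 0.30) at 4 months and -0.06 (SE 0.19) over both ages, and within the high set at 4 months it was 0.63 (SE 0.27). The interval of the difference over both ages with all arrays, 0.04 to 0.80, leaves room for a change of up to that size.

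Cebpa encodes C/EBPalpha, the factor required for the first granulocyte precursors. Its probe set, 1418982_at, read 395, 441 and 552 for wt against 371, 425 and 781 for ko at 1 month, and 923, 798 and 824 for wt against 959.6, 799 and 929 for ko at 4 months. The ko and wt arrays overlapped at each age. The difference was 0.12 (95% interval -0.35 to 0.58) at 1 month and 0.07 (95% interval -0.39 to 0.54) at 4 months, so that a rise of 0.58 or more at 1 month lies outside the interval. Replicate 3 of ko at 1 month was the highest array of its group here, on both Cebpb probe sets, and on those of Cebpd (1423233_at), Gfi1 and Spi1. The same array was the highest of its group on Myb 1422734_a_at (1902), the probe set called at 1 month, and on Myb 1450194_a_at (6594), but not on 1421317_x_at. It was the highest of all 12 arrays on 5 of the 15 probe sets, against 9.91% of all probe sets tested. The neutrophil precursor markers summed on that array to 56667, against 41765 and 40630.4 on the other ko arrays of that age. The mast cell, basophil and eosinophil markers summed there to 8448, against 2732 and 1537 on those arrays and 1537 to 2988 on the other 11 in all. The part of either list in these values was not tested.

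More of the 15 probe sets were called for age than for genotype, and the same held for all probe sets tested. From 1 to 4 months, Cebpa and Spi1 rose in both genotypes, 1 Runx1 probe set rose in both, and Myb fell on 1 of 3 probe sets in wt and on all 3 in ko. In wt 4 of the 15 probe sets were called, against 21.4% of all probe sets tested, and in ko 6 of 15, against 22.9%. The 4 were 3 higher and 1 lower, against 11.8% and 9.67%, and the 6 were 3 higher and 3 lower, against 13.6% and 9.25%. The wt count is near the background, and the 3 lower calls in ko are all Myb. The 2 age comparisons share no array.

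Cebpa rose by 0.84 (SE 0.22, adjusted p = 0.0121) in wt and by 0.80 (SE 0.22, adjusted p = 0.0147) in ko, 1.79-fold and 1.74-fold, and in each genotype all 4-month arrays lay above all 1-month arrays. Groups were separate and higher at 4 months in 18.4% of all probe sets in wt and 28.3% in ko, against 2 and 4 of the 15 here. The wt call was lost without wt at 1 month replicate 1 (adjusted p = 0.0557). The ko call was lost without ko at 1 month replicate 1 or 2 (0.0812 and 0.0705), without ko at 4 months replicate 1 or 3 (0.0608 and 0.0532) and with median centring (0.0566). Within the low array set alone both calls were lost (0.482 in wt and 0.257 in ko). Spi1 rose by 0.83 (SE 0.25, adjusted p = 0.0268) in wt and by 0.75 (SE 0.25, adjusted p = 0.0407) in ko. In wt the ages overlapped, since replicate 1 at 4 months read 749 and replicate 3 at 1 month 844, while in ko 1184 to 1705 at 4 months lay above 669 to 1047 at 1 month. Its wt call was lost without wt at 1 month replicate 1 or 2 (0.0758 and 0.111), without wt at 4 months replicate 2 or 3 (0.101 and 0.0894) and with eBayes without a trend (0.0559). Its ko call was lost without ko at 1 month replicate 1 or 2 (0.163 and 0.0862), without ko at 4 months replicate 1 or 3 (0.117 and 0.149), with median centring (0.128), quantile normalization (0.057), no filter (0.0647) and eBayes without a trend (0.0761). Within the low set alone both were lost (0.266 and 0.245).

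Markers of macrophages, which express both genes, and of B cells, which express Spi1, rose with age too. The 16 monocyte and macrophage genes summed to 47815 to 56794 for wt against 35650.1 to 42947 for ko at 1 month, and to 71764 to 74280 for wt against 77508 to 83788 for ko at 4 months. Of the 15 tested, 10 were called higher at 4 months in wt and 13 in ko, and 0 lower. The 13 B cell genes summed to 50320 to 54595 for wt against 36506 to 41624 for ko at 1 month, and to 80142 to 92960 for wt against 66679 to 81569 for ko at 4 months. The rise was not limited to these 2 lists. Of 11 T cell genes, 6 were called higher at 4 months in wt and 11 in ko. Of 7 NK cell genes, 5 were called higher in each genotype. Of 8 dendritic cell genes 4 were called higher in wt and 7 in ko, and of 7 plasma cell genes 4 and 5. The part of any of these cells in the Cebpa and Spi1 differences was not tested.

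Myb fell with age. In ko the scaled signal of 1450194_a_at went from 4085, 4170.3 and 6594 at 1 month to 792, 1507 and 802 at 4 months, and that of 1422734_a_at from 1270.2, 1308 and 1902 to 480.3, 438 and 348. The fall on the log2 scale was -2.25 (SE 0.35, adjusted p = 0.000399), -1.73 (SE 0.22, adjusted p = 0.000119) and, for 1421317_x_at, -1.40 (SE 0.15, adjusted p = 4.25e-05). In wt, 1421317_x_at fell from 3404, 3877 and 3499.6 to 2335, 2349 and 1639, by 0.78 on the log2 scale (SE 0.15, adjusted p = 0.00186). The other 2 were not called in wt, at -0.31 (SE 0.22) and -0.40 (SE 0.35). All 3 ko calls, and the wt call, held under each setting tried and without each array in turn, the highest adjusted p being 0.0139 in ko and 0.0246 in wt. The ko arrays were all of the low set at 1 month, with 1 low and 2 high at 4 months. On 1450194_a_at the low wt array at 1 month read 3407 and the high ones a mean of 1230. With the array set as a block the ko fall of that probe set was -1.62, the smallest under any setting or array left out. The test of whether the fall differed between ko and wt is the same as that of the genotype effect between the ages, given above. No Myb probe set passed it.

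Most proliferation, erythroid and neutrophil precursor genes were called lower at 4 months, beside the fall of Myb. Of 11 proliferation genes 11 were called lower in wt and 9 in ko, and their sum was 96492 to 140073 for wt against 102934 to 112506 for ko at 1 month, and 37168 to 58371 for wt against 63693 to 72383 for ko at 4 months. Of 11 tested erythroid genes, 11 were called lower in wt and 7 in ko. Of 10 neutrophil precursor genes 6 were called lower in wt and 7 in ko. At 1 month the neutrophil precursor sum was 40630.4 to 56667 in ko, where Myb was highest, against 25079 to 27195 for wt. At 4 months it was 28242 to 33912 for ko against 24347 to 25721 for wt. In wt this sum thus overlapped between the ages. The part of these cells in the Myb values was not tested.

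**Figure D4:**
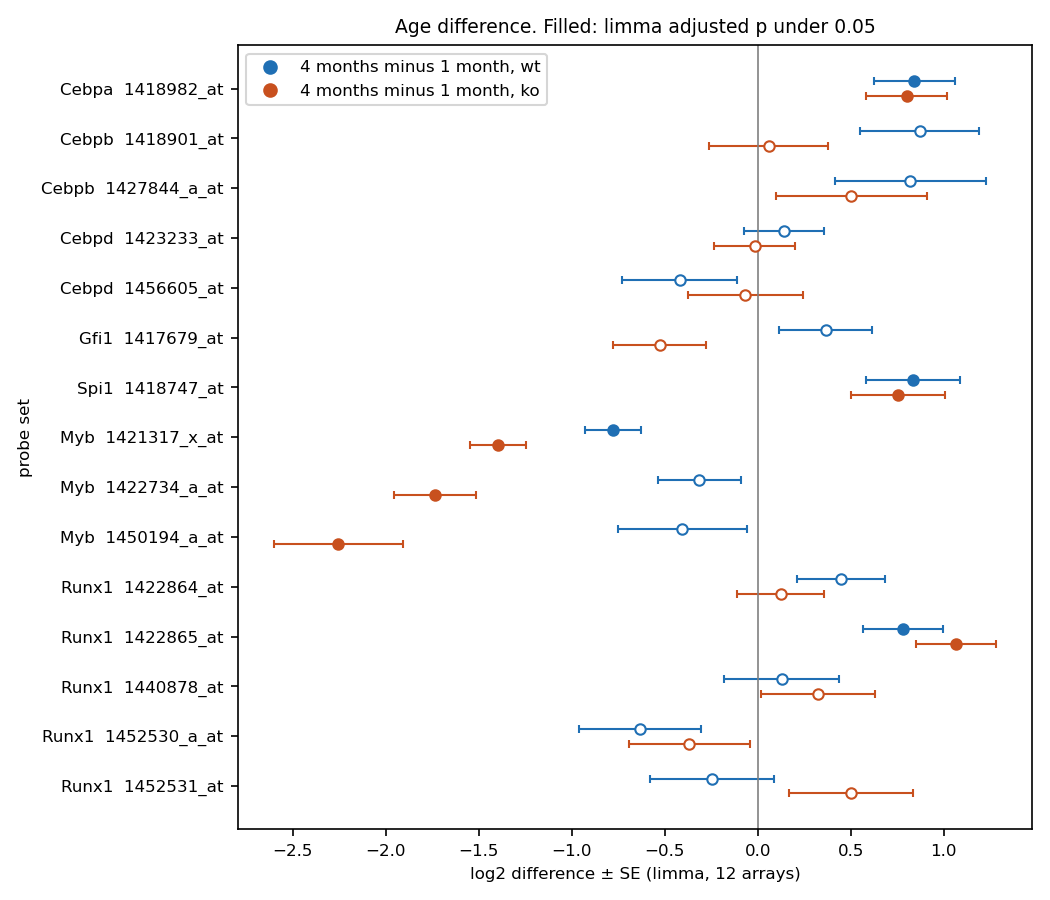
Log2 difference of 4 months against 1 month (x axis, limma, bars are SE) for the 15 tested probe sets in wt (blue) and in ko (orange), with filled points where the adjusted p was under 0.05. Cebpa, Spi1 and Runx1 1422865_at lie above 0 in both genotypes, and the 3 Myb points lie below 0, from -0.31 in wt to -2.25 in ko.

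Cebpb, Cebpd and Gfi1 had no age call in either genotype. Cebpb 1418901_at was 0.87 (SE 0.32, adjusted p = 0.0632) higher at 4 months in wt and 0.06 (SE 0.32, adjusted p = 0.918) in ko. Without wt at 1 month replicate 3 the wt value was 1.28 (adjusted p = 0.00448), and blocking on the array set also gave a call (0.87, adjusted p = 0.0322). In order of group mean, Cebpb stood at 595 in wt at 1 month, 1053 in wt at 4 months, 1483 in ko at 4 months and 1499 in ko at 1 month. No neighbours in that order were called. For Cebpd 1423233_at the order was 700.4 in wt at 1 month, 774 in wt at 4 months, 1181 in ko at 4 months and 1230.2 in ko at 1 month, so the 2 ko groups were closer to each other than to either wt group. The Cebpd age differences were 0.14 (95% interval -0.32 to 0.60) in wt and -0.02 (95% interval -0.48 to 0.44) in ko. For Gfi1 the order was 134 in wt at 1 month, 169 in ko at 4 months, 185 in wt at 4 months and 268 in ko at 1 month. The Gfi1 age difference was 0.36 (SE 0.25) in wt and -0.53 (SE 0.25, adjusted p = 0.143) in ko. In ko the 4-month arrays of Gfi1 all lay below the 1-month arrays. Groups were separate and lower at 4 months in ko for 4 of the 15, against 18.2% of all probe sets tested.

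Myb is shown with its upstream window because its age calls were the most stable of the members. It lies at chr10:21160985-21161234 on the minus strand, 81.2% of its bases are G or C, and it held no match to the 5 motifs.

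Myb: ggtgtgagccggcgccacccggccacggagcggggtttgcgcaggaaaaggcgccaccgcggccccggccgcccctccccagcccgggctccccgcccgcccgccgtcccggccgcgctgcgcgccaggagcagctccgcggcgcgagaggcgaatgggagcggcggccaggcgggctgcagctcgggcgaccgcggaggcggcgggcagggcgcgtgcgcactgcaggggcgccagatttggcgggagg

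Runx1 encodes a Runt-domain factor that is needed for the first blood stem cells and later in megakaryocytes and lymphocytes. Of its 6 probe sets, 1422865_at rose with age, from 197, 275 and 207 to 441, 290.3 and 526 in wt and from 179, 156 and 142 to 386, 394 and 325 in ko. The log2 difference was 0.78 (SE 0.21, adjusted p = 0.0168) in wt and 1.07 (SE 0.21, adjusted p = 0.00238) in ko, and the ages did not overlap in either genotype. The ko call held under each setting and without each array. The wt call was lost without wt at 1 month replicate 1 (0.0625), wt at 4 months replicate 1 (0.0501) or wt at 4 months replicate 3 (0.082), and within the high array set (0.211). The other 4 tested probe sets had no age call, with log2 differences from -0.63 to 0.45 in wt and from -0.37 to 0.50 in ko. No Runx1 probe set was called between the genotypes. At 1 month 4 of the 5 tested estimates were below 0, from -0.29 to -0.79, and 1 was 0.18. For 1452531_at, at -0.79 (SE 0.33, adjusted p = 0.264), wt replicate 1 read 597 and the other wt arrays 187 and 189, against 119 to 169 in ko.

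Runx1 is known for 2 alternative starts, and both upstream windows are shown since its probe sets did not move together. The annotation used here does not tie a probe set to a start. The distal window is chr16:92826075-92826324 and the proximal one chr16:92697330-92697579, both on the minus strand, with 45.6% and 67.6% G or C. The distal window held 5 matches to AACNG, on both strands and in part overlapping, and none to the other 4, and the proximal window held 1 match to GAGGAA, 46 bases before the start.

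Runx1 distal: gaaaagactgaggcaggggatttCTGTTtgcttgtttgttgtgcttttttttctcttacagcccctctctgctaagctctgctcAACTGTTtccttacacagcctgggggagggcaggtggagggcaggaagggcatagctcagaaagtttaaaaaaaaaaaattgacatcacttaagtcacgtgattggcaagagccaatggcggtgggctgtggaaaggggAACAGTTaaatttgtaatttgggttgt

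Runx1 proximal: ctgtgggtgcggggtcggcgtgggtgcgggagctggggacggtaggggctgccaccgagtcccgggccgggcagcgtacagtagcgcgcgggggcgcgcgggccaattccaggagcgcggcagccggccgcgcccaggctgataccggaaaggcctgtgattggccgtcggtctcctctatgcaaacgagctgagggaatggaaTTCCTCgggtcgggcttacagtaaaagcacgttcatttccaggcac

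**Figure D5:**
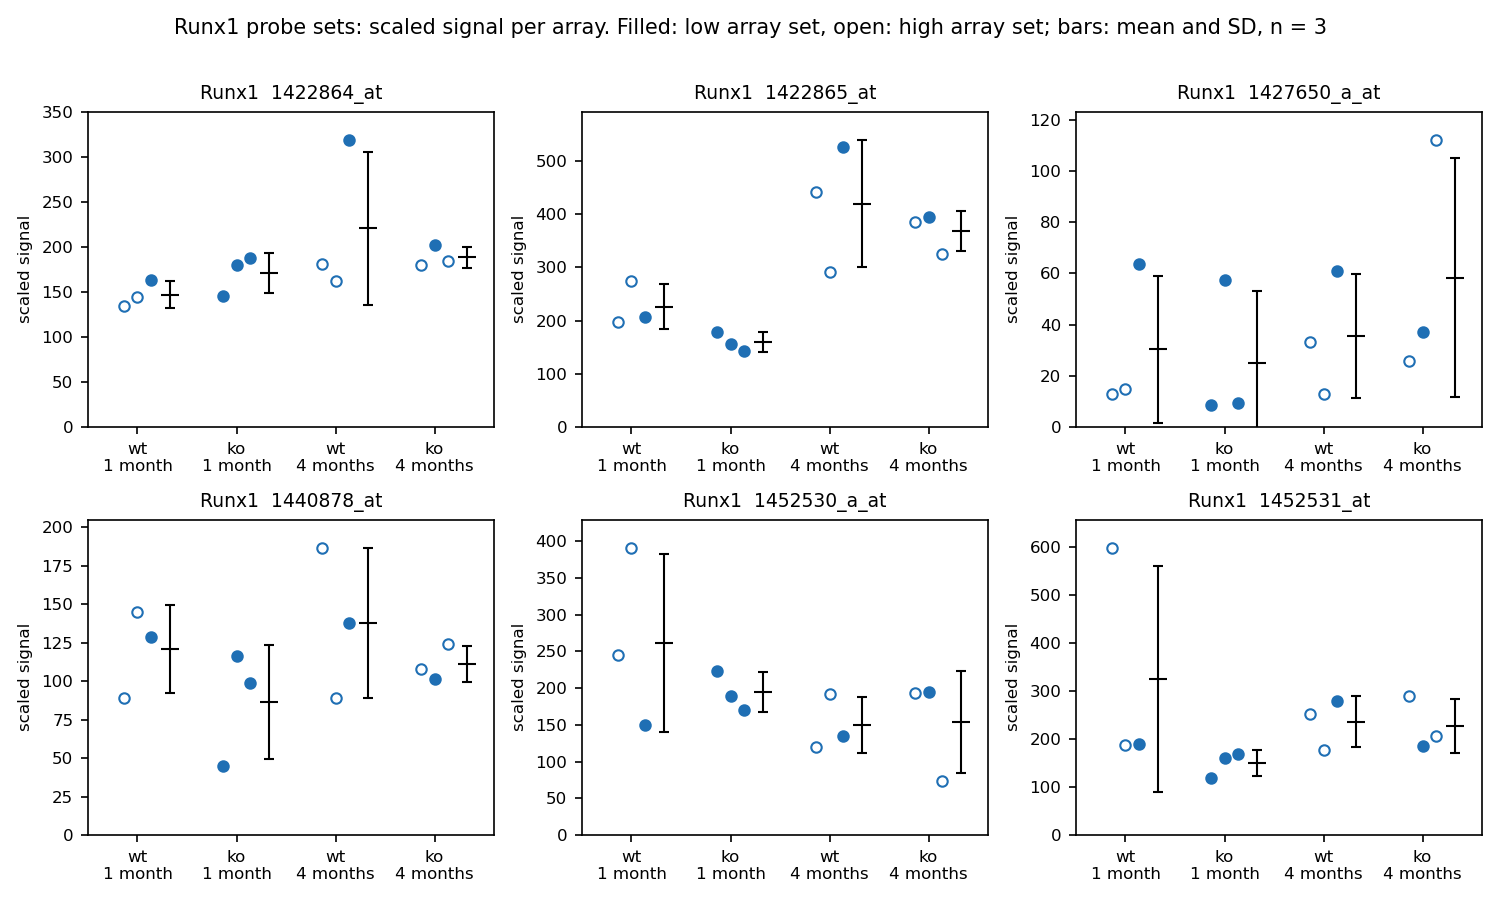
Scaled signal (linear axis from 0) of the 6 Runx1 probe sets on each array, by group, with filled points for the low array set, open points for the high set, and the mean and SD of 3 arrays beside them. Only 1422865_at separates the ages in both genotypes, from 142 to 275 at 1 month and from 290.3 to 526 at 4 months, and 1427650_a_at stays at or under 112.

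Many granule genes that these factors are known to regulate were called between the genotypes, while most probe sets of the factors were not. A factor without a call was not shown to be unchanged. Cebpe, which drives the formation of secondary granules, was matched by no probe set and could not be compared. Of 9 tested primary granule genes, 6 were called higher in ko at 1 month and 5 at 4 months, with a median log2 difference of 1.97 and 1.46. Of 16 secondary and tertiary granule genes, 11 and 8 were called higher, with medians of 1.78 and 1.23. Examples at 1 month are Prtn3 (2.65, SE 0.24), which encodes proteinase 3, and Chil3 (2.37, SE 0.22), and at 4 months Camp (3.02, SE 0.21), which encodes cathelicidin. These lists were chosen with the neutrophil results of these arrays known, and their direction is not independent evidence. Summed neutrophil precursor markers at 1 month were 25079 to 27195 for wt against 40630.4 to 56667 for ko. At 4 months they were 24347 to 25721 for wt against 28242 to 33912 for ko. Of these 10 genes, 7 were called higher in ko at 1 month and 6 at 4 months, against 0.203% and 1.78% of all probe sets tested. Their median log2 differences were 1.94 and 1.38, and the sums, which are weighted to the brightest genes, differed less. Mature neutrophil markers at 1 month summed to 33887 to 40241 for wt against 74317 to 78549 for ko. At 4 months they summed to 17436 to 21578 for wt against 49656 to 64725 for ko. Of these 13 genes, 5 were called higher in ko at 1 month and 7 at 4 months, with median log2 differences of 0.62 and 0.66. S100a8 and S100a9 weigh heavily in the sums, with means at 1 month of 15634 and 14147 for wt against 31017 and 32874 for ko. The part of this shift in the Cebpb, Cebpd, Gfi1 and Myb values was not tested.

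Among 72 other regulators of blood cell formation found on the array, 70 were tested. Between the genotypes at 1 month 0 were called, against 0.444% of all probe sets tested. At 4 months 3 were called higher in ko and 2 lower, against 1.78% and 0.518% of all probe sets tested. The higher ones were Tal1 (1.25, SE 0.16, adjusted p = 0.000558), Zfpm1 (1.30, SE 0.26, adjusted p = 0.0134) and Gata1 (1.17, SE 0.24, adjusted p = 0.0147), which act in erythroid and megakaryocyte cells. Lower were Bach2 (-0.88, SE 0.18, adjusted p = 0.0176) and Spib (-0.65, SE 0.15, adjusted p = 0.028), factors of B cells. The median difference of the 70 was -0.02 at each age, beside -0.04 and -0.01 for all probe sets. In ko at 4 months 9 of 11 tested erythroid and 9 of 10 megakaryocyte markers were called higher than in wt, and their part in these regulators was not tested.

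Of 24 receptors and ligands of granulocyte production on the array, 20 were tested and 1 was called between the genotypes, Csf3r, the receptor for G-CSF. It rose in ko by 0.66 (SE 0.16, adjusted p = 0.0428) at 4 months and by 0.63 (SE 0.11, adjusted p = 0.00663) over both ages. Of all probe sets tested, 2.3% were called between the genotypes at 4 months and 5.39% over both ages. Csf3r also rose with age, by 0.86 (SE 0.16, adjusted p = 0.00144) in wt and 0.91 (SE 0.16, adjusted p = 0.00103) in ko. In each genotype 10 of the 20 were called higher at 4 months, against 11.8% of all probe sets in wt and 13.6% in ko.

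Profiles most like those of the called members were found by the root mean square difference of log2 values, each centred on its mean, over the 12 arrays and 12325 other genes. For Cebpa they were Nek9 (0.14), Epn2 (0.16) and Rflnb (0.17), and for Spi1 Ssh3 (0.14), Pkm (0.20) and Stat2 (0.20). Those nearest to Cebpb were Rhob and Zfp341 (0.32 each) and Fbxl6 (0.33), and to Cebpd Card10 (0.20), Akt1 (0.21) and Vegfb (0.21). Myb 1421317_x_at was nearest to Klhl23, Tnfaip2 and Drosha (0.23 each), and Runx1 1422865_at to Casp1 (0.13), Abca9 (0.13) and Mdfic (0.14). The SD of the Cebpb profile itself over the arrays is 0.70 and that of Cebpd 0.42.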

How the data were processed

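Biotin-labelled RNA from spleens of 12 mice was hybridised to 12 Affymetrix arrays, per the labels. The deposited values are linear signal intensity per probe set, and the submitters' processing notes name MAS5 with no version. On every array the deposited values average 500 after a 2% trim at each end, and rescaling to it moved them by at most 0.00051%. Of 45101 probe sets, 64 controls were left out. A single symbol was annotated for 34945 of the rest, more than 1 for 932 and none for 9160. After an offset of 32 and log2, 27041 probe sets with a signal of at least 100 in at least 3 arrays were fitted with 4 group means in limma 3.58.1 (R 4.3.3, eBayes with trend, 8 residual and 8.27 prior degrees of freedom). The test was checked on simulated data. Errors are SE for log2 differences and SD over 3 mice for signals. The number of arrays limits the precision. The 6 contrasts were genotype at each age, over both ages, the difference between the ages, and age in each genotype.

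The members and lists were chosen with earlier results of these data known. Genes named are all members, the 3 nearest profiles of each called member, up to 4 genes of each pathway list with the smallest adjusted p among those called between the genotypes at 1 or at 4 months, and Il1rn. For other genes the probe set with the highest mean signal stood for the gene. Spib, the next called regulator at 4 months, was named after its value was seen. Of 293 listed genes, 258 were matched to a probe set with 1 symbol. Alternatives were quantile normalization, median centring, an offset of 1 or 64, a filter at 200 or none, a variance prior without trend, the replicate number and the array set as blocks, each array set alone, and leaving out each array. The array sets come from the largest gap in the highest deposited signals, and no label names them. Upstream windows are RefSeq sequences of GRCm38.p6, and the motifs were chosen after the members' values were seen. Which build the array annotation rests on is not given in the sources used here.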

Additional observations from a re-analysis of the deposited data

How the results depend on the processing

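The count of called member probe sets at 1 month, 1 of 15, became 0 with quantile normalization, an offset of 1, no filter, eBayes without a trend, the array set as a block and the low set alone, and 0 to 4 when 1 array was left out. Over both ages the count of 2 became 0 with eBayes without a trend, the array set as a block and the low set alone, and 0 to 5 with 1 array left out. For the shift of the genotype effect between the ages it was 0, and 0 to 2 with 1 array left out, the 2 without wt at 1 month replicate 3. At 4 months it was 0 under each setting. For age in wt the count of 4 became 2 within the low set and 1 to 6 with 1 array left out, and for age in ko the count of 6 stayed between 4 and 6. The high set holds no ko array at 1 month, so only the genotype effect at 4 months and age in wt were computed there. Once wt at 1 month replicate 3 is left out, the low set holds no wt array at 1 month. A lone array in a group was assumed to vary like the others. The cause of these changes was not tested.

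With the replicate block the counts were 1 at 1 month, 0 at 4 months, 3 over both ages, 0 for the difference between the ages, 6 for age in wt and 6 for age in ko. Same-numbered arrays had deviation correlations from -0.201 to 0.211, with 4 of 18 above 0.1, and 4 of 12 arrays correlated best with their own number, so the numbers were not taken as pairs. Under the block Cebpb 1418901_at was called at 1 month (adjusted p = 0.00453). No called difference changed its sign under any setting. Uncalled ones did: within the low set at 4 months the Cebpb values were -0.11 and -0.31, and the Spi1 value -0.12. The scaling turned 4 uncalled values. Over all probe sets, the 120 calls at 1 month became 68 with eBayes without a trend, 77 with no filter, 45 with the array set as a block and 28 within the low set. The 621 at 4 months became 248 with eBayes without a trend, 299 within the low set and 80 within the high set, and the 1457 over both ages 555 with eBayes without a trend, 795 with no filter, 973 with the block and 216 within the low set. The 5795 for age in wt became 1634 within the low and 3812 within the high set, and the 6187 in ko 2645 within the low set. The 13 for the shift became 1 with eBayes without a trend and 8 with no filter. With 1 array left out, the counts over all probe sets ran from 36 (without ko at 1 month replicate 3) to 1593 (without wt at 1 month replicate 3) at 1 month and from 161 (without ko at 4 months replicate 3) to 994 (without wt at 4 months replicate 2) at 4 months. They ran from 407 to 2909 over both ages, without the same 2 arrays as at 1 month, and from 5 to 92 for the shift, the 92 without wt at 4 months replicate 2. For age they ran from 3517 (without wt at 1 month replicate 1) to 6370 in wt and from 3670 (without ko at 4 months replicate 1) to 6716 in ko. Median centring moved the median of all probe sets by 0.16 at 1 month, -0.13 for the difference between the ages and -0.15 for age in ko, where quantile normalization moved it by -0.11.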
